A study of Mus musculus with 4 samples.

Results

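The genes described here are 8 enzymes of cholesterol synthesis: Hmgcs1, Idi1, Fdps, Fdft1, Sqle, Cyp51, Dhcr7 and Sc5d. They were chosen by name, as every probe set whose single gene symbol in the platform annotation is 1 of the 8. This gave 12 probe sets, out of 12422 probe sets and 8251 named genes in all. None of the 8 is an uptake gene, and the uptake receptors are given further on as a separate list. Fdps had 4 probe sets, Sc5d had 2, and the other 6 genes had 1 each. Probe sets of Fdps and of Sc5d are thus readings annotated to the same gene, and not replicates.

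Total RNA of testes from hypogonadal (hpg) mice was measured on 4 one-colour arrays, 1 per sample, whose probe set names are those of Affymetrix. The hpg mouse lacks gonadotropin-releasing hormone and makes little testosterone of its own, a state shared by every sample. The group titled T+O is 1 array from mice given testosterone propionate (spelled proprionate in the labels) for 2 weeks and then withdrawn from it. The group titled T+T is 3 arrays. Replicate 1 is described as given testosterone propionate (for a time the label does not state), withdrawn, and then given it again for 4 hours. Replicates 2 and 3 are described as given it for 2 weeks and withdrawn, with no later dose named, so that their place in T+T rests on the title alone. Age, strain background and the number of animals behind each array are not given in the sources used here, and the spread between arrays may therefore be technical in part. The titles do not spell out T+T and T+O. With T+T taken as renewed testosterone, the arrays set the testis given it again against the testis left without it.

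Cholesterol is built from acetyl-CoA through mevalonate, isoprenoid diphosphates, squalene and lanosterol. The genes of the pathway share a control: when membrane sterol is low, the transcription factor SREBP-2 is cut from its membrane anchor and binds sterol regulatory elements in their promoters, usually beside sites for NF-Y (the CCAAT box) and Sp1 (the GC box). In the testis, Leydig cells turn cholesterol into testosterone, and germ cells accumulate sterol intermediates. The product of Cyp51 is known as a meiosis-activating sterol.

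Promoter sequence of RefSeq, build GRCm38.p6, was found for 5 of the 8 genes: Hmgcs1, Idi1, Cyp51, Dhcr7 and Sc5d, in 7 windows of 250 bases before an annotated start. The other 3 genes, Fdps, Fdft1 and Sqle, are named only. Of these windows 3 are shown, because Hmgcs1 held the one match to a sterol regulatory element, Idi1 had the widest difference between T+O and T+T among the probe sets bright enough to test, and Cyp51 had the widest spread among the T+T arrays on the log2 scale. They lie at chr13:119690101-119690350 on the plus strand (Hmgcs1), chr13:8885356-8885605 on the plus strand (Idi1) and chr5:4104698-4104947 on the minus strand (Cyp51). Capitals mark a match to the sterol regulatory element, TCACNCCAC, or to the CCAAT box, CCAAT, on either strand, the latter reading ATTGG when on the opposite strand.
Hmgcs1: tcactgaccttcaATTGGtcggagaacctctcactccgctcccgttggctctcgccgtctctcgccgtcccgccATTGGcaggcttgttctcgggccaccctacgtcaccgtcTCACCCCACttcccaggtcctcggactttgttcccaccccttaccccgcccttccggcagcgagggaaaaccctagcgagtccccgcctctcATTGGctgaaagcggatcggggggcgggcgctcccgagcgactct
Idi1: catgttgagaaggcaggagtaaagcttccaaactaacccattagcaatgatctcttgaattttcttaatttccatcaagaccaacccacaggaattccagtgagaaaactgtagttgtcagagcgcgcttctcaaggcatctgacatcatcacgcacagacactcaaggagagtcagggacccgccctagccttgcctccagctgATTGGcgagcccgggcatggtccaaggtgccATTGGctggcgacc
Cyp51: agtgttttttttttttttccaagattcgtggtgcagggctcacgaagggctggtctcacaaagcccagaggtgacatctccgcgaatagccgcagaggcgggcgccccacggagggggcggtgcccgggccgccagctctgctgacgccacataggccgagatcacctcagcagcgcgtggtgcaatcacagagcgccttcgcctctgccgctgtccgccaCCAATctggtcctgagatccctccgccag

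The sterol regulatory element of Hmgcs1, TCACCCCAC, begins 137 bases before the annotated start. It was the 1 match among the 7 windows, where 1.05% of all 32851 windows of this length held one. A CCAAT box was in 5 of the 7 windows and in at least 1 window of each of the 5 genes, against 33.8% of all windows. The Hmgcs1 window held 3 CCAAT boxes, that of Idi1 2 and that of Cyp51 1. A GC box, GGGCGG on either strand, was in 6 of the 7 windows and again in at least 1 window of each of the 5 genes, against 32.7% of all windows. These shares are per window and not per gene. Dhcr7 had several windows, of which some lacked a CCAAT box and 1 lacked a GC box as well. No motif overlapped another in its letters, and a match describes letters in a window, not binding. Only these patterns were searched, so a window without a match may still hold a variant site.

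No probe set of the 8 genes passed the test of T+T against T+O. Signals were scaled to a common trimmed mean, 10 was added before log2, and the difference was tested with limma and adjusted over the 7453 probe sets whose mean signal was above 22.7. Of the 12 probe sets, 6 lay above that level, from Hmgcs1, Idi1, Fdps (2 probe sets), Fdft1 and Sqle. The other 6, which include every probe set of Cyp51, Dhcr7 and Sc5d, are dim, and their intervals come from the fit with no filter. None of the 6 brighter probe sets passed an adjusted p of 0.05 (limma, adjusted p from 0.67 to 0.99), and 0 had an unadjusted p under 0.05, where 0.0268% of all probe sets kept passed the adjusted threshold and 7.80% had an unadjusted p under 0.05. None lay 1.5-fold or more away from T+O, in 1 direction, on all 3 T+T arrays, as 4.04% of all probe sets kept did (1.82% higher and 2.21% lower in T+T). In 2 of the 6 the T+O array lay outside the T+T range, 1 on each side, and in 4 it lay within, against 53.3% of all probe sets kept with T+O outside. The 5 genes kept had a median log2 difference of -0.067, taking the brightest probe set of each, and all 5677 genes kept had a median of 0.020.

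**Figure D1:**
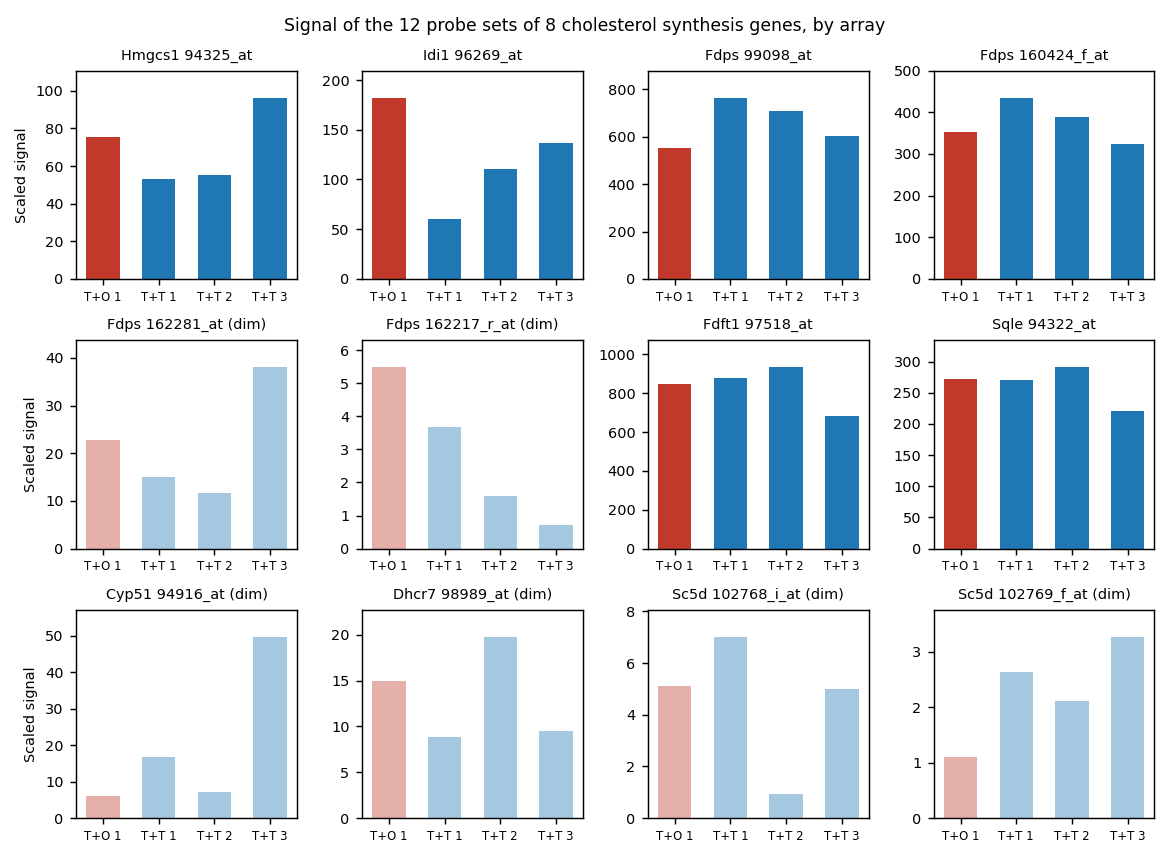
Scaled signal (linear axis from 0, a separate scale in each panel) of the 12 probe sets on the T+O array (red) and the 3 T+T arrays (blue); pale bars are the 6 probe sets with a mean signal under 22.7. Idi1 is highest on T+O at 182, Hmgcs1 is highest on T+T replicate 3 at 96.3, and Fdft1 and Sqle are lowest on T+T replicate 3.

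The first of these enzymes, Hmgcs1, is the cytosolic synthase that makes HMG-CoA, the substrate of HMG-CoA reductase. Its scaled signal was 75.3 on T+O and 53.1, 55.1 and 96.3 on T+T replicates 1, 2 and 3. The T+O array fell between the T+T arrays: replicates 1 and 2 lay below it and replicate 3 above. The T+T mean was 68.2 ± 24.4 (SD, n = 3), a log2 difference from T+O of -0.17 with a 95% interval of -0.95 to 0.61 (limma, adjusted p = 0.96). This interval runs from 0.517-fold to 1.53-fold.

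Idi1, the isomerase that supplies the reactive isoprenoid unit, had the widest difference of the 6. Its signal was 182 on T+O and 60.04, 111 and 136 on the T+T arrays, a mean of 102 ± 38.8 (SD, n = 3). All 3 T+T arrays lay below T+O, which holds for 23.7% of all probe sets kept, and they differed among themselves by 2.27-fold from lowest to highest. The log2 difference was -0.84 ± 0.38 (SE), with a 95% interval of -1.73 to 0.044 (limma, adjusted p = 0.67). T+O was 1.79-fold higher, with an interval of 0.970 to 3.31. Without T+T replicate 1 the log2 difference was -0.53.

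Hmgcs1 and Idi1 had the same order within T+T, with replicate 1 lowest and replicate 3 highest, and both had T+O and T+T replicate 3 as their 2 highest arrays. These 2 arrays were also the brightest as deposited, with trimmed means of 106 and 124 against 84.1 and 72.9 on T+T replicates 1 and 2. The order of the 4 arrays was the same after quantile scaling, where Hmgcs1 read 75.3, 54.9, 56.8 and 92.7 and Idi1 read 182, 62.5, 113 and 132 on T+O and T+T replicates 1, 2 and 3. The part of the deposited brightness in these 2 differences was not tested.

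Fdps, which joins isoprenoid units into farnesyl diphosphate, was read by 4 probe sets. The brightest, 99098_at, had 551 on T+O and 764, 709 and 604 on the T+T arrays, a mean of 693 ± 81.2 (SD, n = 3). All 3 T+T arrays lay above T+O, as in 29.5% of all probe sets kept, and replicate 3 lay closest to it. The log2 difference was 0.32 with a 95% interval of -0.13 to 0.76 (limma, adjusted p = 0.75).

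The second Fdps probe set, 160424_f_at, carries a suffix that marks probes shared within a sequence family. It read 353 on T+O and 435, 388 and 323 on the T+T arrays, so that T+O lay above replicate 3 and below the other two. Its log2 difference was 0.10 with an interval of -0.39 to 0.59 (limma, adjusted p = 0.96). The 2 dim Fdps probe sets lay on the other side of 0, with log2 differences of -0.14 for 162281_at (interval -1.41 to 1.12) and -0.38 for 162217_r_at (interval -0.83 to 0.074). The 4 probe sets therefore give no common direction for Fdps. On 162281_at the signals were 22.8 on T+O and 15.1, 11.7 and 38.0 on the T+T arrays, with replicate 3 highest, whereas 162217_r_at read 5.49 on T+O and between 0.701 and 3.68 on T+T, with replicate 3 lowest.

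The next 2 enzymes commit the pathway to sterols and had the smallest log2 differences of all 12 probe sets. Fdft1, squalene synthase, had 846 on T+O and 877, 933 and 684 on the T+T arrays, a mean of 832 ± 131 (SD, n = 3). T+O lay within that range, above replicate 3 and below the other two. The log2 difference was -0.037 with a 95% interval of -0.53 to 0.46 (limma, adjusted p = 0.99), which leaves room for anything between 0.692-fold and 1.37-fold. Sqle, squalene epoxidase, had 272 on T+O and 271, 291 and 221 on the T+T arrays, a mean of 261 ± 36.2 (SD, n = 3). T+O and T+T replicate 1 were nearly the same, replicate 2 was a little higher and replicate 3 was lowest. The log2 difference was -0.067 with an interval of -0.56 to 0.42 (limma, adjusted p = 0.97), or 0.678-fold to 1.34-fold. Missing the threshold does not show that these enzymes were unaffected.

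The 6 brighter probe sets differed in which array was lowest. Hmgcs1 and Idi1 were lowest on T+T replicate 1. Fdft1, Sqle and Fdps 160424_f_at were lowest on T+T replicate 3, and Fdps 99098_at had replicate 3 as the lowest T+T array but T+O lower still. Over all probe sets kept, 26.3% were lowest on T+T replicate 1 and 22.0% on T+T replicate 3. After quantile scaling replicate 3 was still the lowest array for Fdft1 (723), Sqle (221) and 160424_f_at (325). As deposited, before any scaling, replicate 3 was instead the highest of the 4 arrays for both Fdps probe sets, at 776 and 414. For Fdft1 and Sqle as deposited, replicate 3 was second highest, at 878 and 283, and T+T replicate 2 was lowest, at 703 and 219. The lower place of T+T replicate 3 for Fdps, Fdft1 and Sqle thus depends on bringing the arrays to a common level. The spread within T+T, as the SD of the log2 values, was 0.42 for Hmgcs1 and 0.55 for Idi1, and between 0.17 and 0.23 for the other 4, against a median of 0.20 over all probe sets kept.

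**Figure D2:**
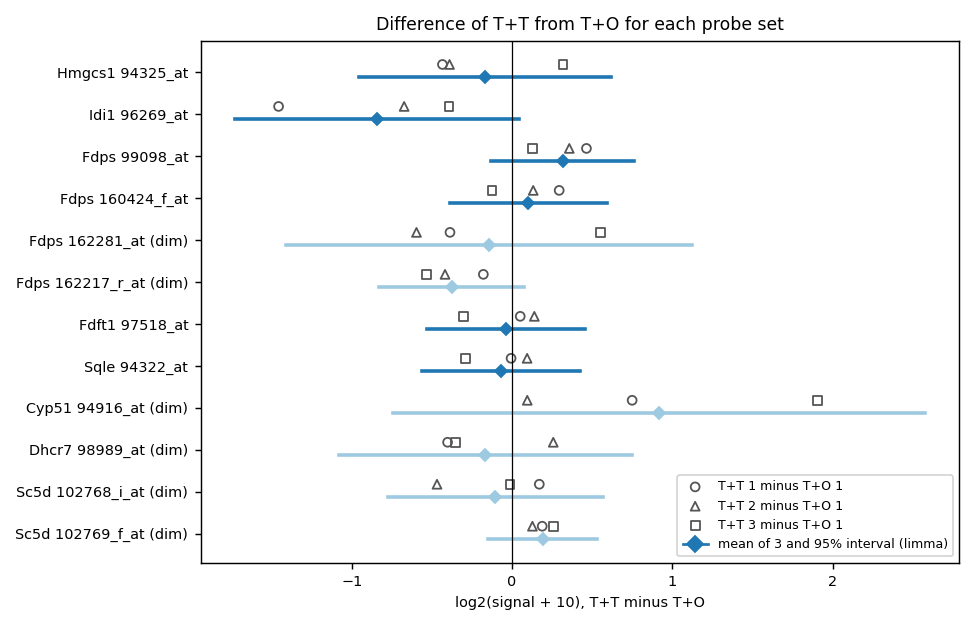
Differences of T+T from T+O on the log2(signal + 10) scale for the 12 probe sets: open symbols are each T+T array minus the T+O array, diamonds the mean of the 3, and lines the 95% interval from limma; pale marks are the dim probe sets. All 12 intervals hold 0; Idi1 lies farthest from 0 among the brighter probe sets, at -0.84, with an interval that ends at 0.044.

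The 3 enzymes that act after lanosterol is formed were all dim. Cyp51, the demethylase of lanosterol, had 5.95 on T+O and 16.8, 7.03 and 49.6 on the T+T arrays. All 3 T+T arrays lay above T+O, but only replicate 3 was above the filter level of 22.7. The highest T+T array was 7.06-fold above the lowest, and the log2 difference of 0.92 had a 95% interval of -0.74 to 2.58. Without T+T replicate 3 it was 0.42, and with T+T replicate 1 set against the other 3 arrays it was 0.083. Cyp51, like Hmgcs1, was highest on T+T replicate 3, as were 29.3% of all probe sets kept.

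Dhcr7, which makes cholesterol in the last step of one branch, had 14.9 on T+O and 8.86, 19.8 and 9.51 on the T+T arrays. T+O lay between replicate 2 and the other two. The log2 difference was -0.17 with an interval of -1.08 to 0.75. Sc5d, the desaturase that acts just before it, was read by a pair of probe sets whose suffixes mark an incomplete probe selection (102768_i_at) and a sequence family (102769_f_at). On 102768_i_at it had 5.12 on T+O and 7.02, 0.929 and 4.99 on the T+T arrays, a log2 difference of -0.10 with an interval of -0.78 to 0.57. On 102769_f_at it had 1.10 on T+O and 2.65, 2.12 and 3.27 on the T+T arrays, a log2 difference of 0.19 with an interval of -0.15 to 0.53. The 2 probe sets differ in sign, and with an offset of 10 these log2 differences understate any change at such low signals. Without detection calls, it could not be judged whether Cyp51, Dhcr7 and Sc5d were above background.

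The descriptions allow another reading, in which only T+T replicate 1 had received testosterone again and the other 3 arrays were withdrawn. Under it, none of the 6 brighter probe sets passed (limma, adjusted p from 0.92 to 0.99), as with 0% of all probe sets kept, and 1 had an unadjusted p under 0.05, where 5.10% of all probe sets kept did. That 1 was Idi1, at 60.04 on T+T replicate 1 against 143 ± 36.2 (SD, n = 3) on the other arrays. It lay at least 1.5-fold below all 3 of them, as 2.09% of all probe sets kept did, with a log2 difference of -1.10 and an unadjusted 95% interval of -1.77 to -0.43 (limma, adjusted p = 0.92). Hmgcs1 was likewise below all 3 other arrays, at 53.1 against 75.5 ± 20.6 (SD, n = 3), a log2 difference of -0.41 (limma, adjusted p = 0.94). Both brighter Fdps probe sets were above all 3, with log2 differences of 0.30 for 99098_at and 0.29 for 160424_f_at. Fdft1 and Sqle lay between the other arrays, at 0.11 and 0.060. In all, T+T replicate 1 lay outside the other 3 arrays in 4 of the 6, 2 on each side, against 51.9% of all probe sets kept (25.6% above and 26.3% below). Both readings share arrays, so that their values are the same measurements set against each other in a different way.

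The pair of arrays whose title and description match, T+T replicate 1 and T+O, gave Idi1 at -1.46 on the log2 scale, the only 1 of the 6 past 1.5-fold, where 11.0% of all probe sets kept were that far below T+O and 6.83% that far above. Hmgcs1 was at -0.43, Fdps at 0.46 and 0.29, Fdft1 at 0.051 and Sqle at -0.006. With a single array on each side, these differences have no replicate check.

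**Figure D3:**
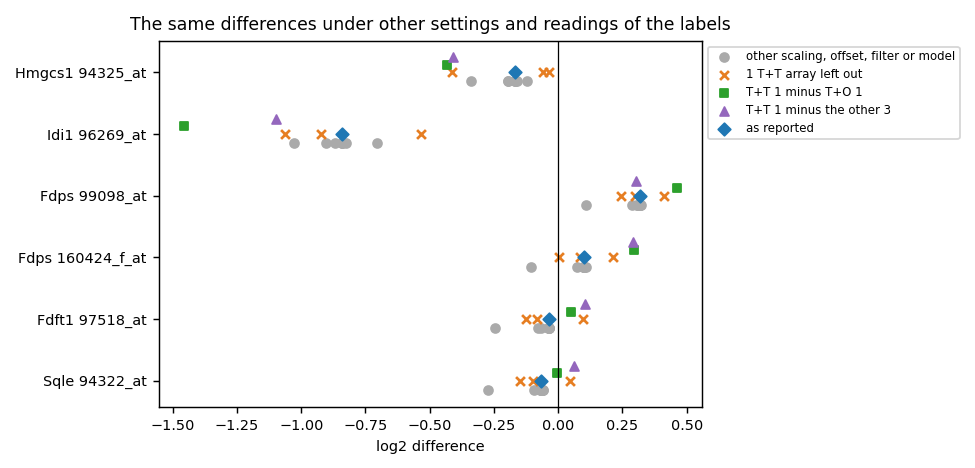
Log2 differences of the 6 brighter probe sets as reported (diamonds) and under other scaling, offset, filter or variance settings (grey circles), with 1 T+T array left out (crosses), for T+T replicate 1 against T+O alone (squares) and for T+T replicate 1 against the other 3 arrays (triangles). Idi1 and Hmgcs1 stay below 0 and Fdps 99098_at above 0 under every setting drawn, while Fdft1, Sqle and Fdps 160424_f_at have settings on both sides of 0.

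The other enzymes of sterol synthesis likewise gave no gene past the threshold. Of 13 listed, 9 had a probe set, 6 were kept, and none passed in either direction (limma, adjusted p from 0.81 to 1), with a median log2 difference of 0.061 beside 0.020 over all genes kept. HMG-CoA reductase was not analysed here. Nsdhl, a sterol dehydrogenase, had 90.6 on T+O and 115, 122 and 103 on the T+T arrays on its brightest probe set, a log2 difference of 0.29 (limma, adjusted p = 0.81), and its other probe sets gave 0.32 and 0.12. Mevalonate kinase, Mvk, had 111 on T+O and 133, 137 and 137 on the T+T arrays, a log2 difference of 0.27 (limma, adjusted p = 0.81) with all 3 above T+O. Lbr, which has sterol reductase activity beside its part in the nuclear envelope, had 124 on T+O and 72.8, 104 and 129 on the T+T arrays, a log2 difference of -0.29. Lss, which closes the sterol rings to give lanosterol, had 42.0 on T+O and 34.2, 39.5 and 29.3 on the T+T arrays, a log2 difference of -0.24 (limma, adjusted p = 0.92).

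Regulators of the pathway were thinly covered. Of 12 listed, 4 had a probe set and 3 were kept, and none passed in either direction (limma, adjusted p from 0.81 to 0.99), with a median log2 difference of 0.11. Srebf1, the SREBP gene best known for fatty acid synthesis, had 132 on T+O and 118, 117 and 155 on the T+T arrays, with T+O inside the T+T range and a log2 difference of -0.031. The SREBP-cleaving protease Mbtps1 had 119 on T+O and 121, 163 and 184 on the T+T arrays, a log2 difference of 0.35 (limma, adjusted p = 0.81). Nr1h3, the oxysterol sensor known as a liver X receptor, had 66.1 on T+O and 87.0, 62.2 and 69.9 on the T+T arrays. Insig1, which holds SREBP in the endoplasmic reticulum and is itself a target of SREBP, was dim, with 6.22 on T+O and between 1.73 and 6.31 on T+T. Srebf2 was not analysed here.

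Uptake and intracellular transport were represented by 10 of 15 listed genes, of which 7 were kept. None passed in either direction (limma, adjusted p from 0.64 to 0.98), and the median log2 difference was 0.042. Scarb1, the receptor through which steroid-making cells take cholesterol esters from high-density lipoprotein, had 331 on T+O and 375, 319 and 331 on the T+T arrays. T+O lay within that range, and the log2 difference was 0.042 with an interval of -0.39 to 0.47 (limma, adjusted p = 0.98). The LDL receptor was not analysed here. Scp2, a sterol carrier protein, had 26.0 on T+O and 43.4, 54.9 and 45.7 on the T+T arrays on probe set 95787_s_at, a log2 difference of 0.68 (limma, adjusted p = 0.64). Its dimmer probe set 93278_at went the other way, with a log2 difference of -0.69, so that the direction for Scp2 is uncertain. Npc1, which exports cholesterol from lysosomes, had a log2 difference of 0.25. On the lower side were Osbp, an oxysterol-binding transfer protein, with 136 on T+O and 108, 108 and 109 on the T+T arrays (log2 difference -0.31; limma, adjusted p = 0.78), and Lrp1, a lipoprotein receptor, at -0.14.

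Among genes of cholesterol ester storage and efflux, 7 of 10 had a probe set and 6 were kept. None passed in either direction (limma, adjusted p from 0.67 to 0.98), and the median log2 difference was -0.14. Abca1, the exporter that loads cholesterol onto apolipoprotein, had 56.5 on T+O and 14.5, 26.4 and 37.0 on the T+T arrays, a log2 difference of -0.94 with an interval of -1.92 to 0.046 (limma, adjusted p = 0.67). Its highest array was T+O and its lowest T+T replicate 1, but its dimmer probe set 97198_at differed by 0.25 the other way. Lipe, the hormone-sensitive lipase that frees cholesterol from its esters, had 260.3 on T+O and 229, 141 and 187 on the T+T arrays, a log2 difference of -0.49 (limma, adjusted p = 0.73). Abcg1, also a cholesterol exporter, had 138 on T+O and 200, 165 and 167 on the T+T arrays, a log2 difference of 0.33, and apolipoprotein E, Apoe, differed by -0.050.

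Enzymes that draw on farnesyl or geranylgeranyl diphosphate, or act on their later products, had 7 of 12 genes with a probe set and 6 kept. None passed in either direction (limma, adjusted p from 0.15 to 0.99), and the median log2 difference was -0.042. Icmt, which methylates prenylated proteins, was the 1 gene of all these lists at least 1.5-fold from T+O on all 3 T+T arrays. Of all probe sets kept, 4.04% were that far in either direction and 1.82% on the higher side. Icmt had 11.0 on T+O, under the filter level, and 61.1, 61.3 and 57.0 on the T+T arrays (limma, adjusted p = 0.15). Rabggta, a subunit of Rab geranylgeranyl transferase, had a log2 difference of 0.29, and Rabggtb, its partner subunit, one of -0.14. Ggps1, which makes geranylgeranyl diphosphate from the product of Fdps, had 37.1 on T+O and 17.0, 23.6 and 43.9 on the T+T arrays on its brighter probe set, and its other probe set had the same order of the 4 arrays. In that order T+T replicate 3 was highest and replicate 1 lowest, with T+O second.

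Fatty acid synthesis genes, which the SREBP proteins also drive, had 7 of 10 genes with a probe set and 6 kept. None passed in either direction (limma, adjusted p from 0.68 to 1), and the median log2 difference was -0.068. Fatty acid synthase, Fasn, had 183 on T+O and 239, 211 and 254 on the T+T arrays, a log2 difference of 0.34 (limma, adjusted p = 0.74), and Fads1, a desaturase, one of 0.055. Malic enzyme, Me1, which supplies NADPH, had 740.4 on T+O and 551, 625 and 526 on the T+T arrays, a log2 difference of -0.38 (limma, adjusted p = 0.68). Acly, which makes cytosolic acetyl-CoA, the starting material of both pathways, had a log2 difference of -0.17 (limma, adjusted p = 0.92).

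**Figure D4:**
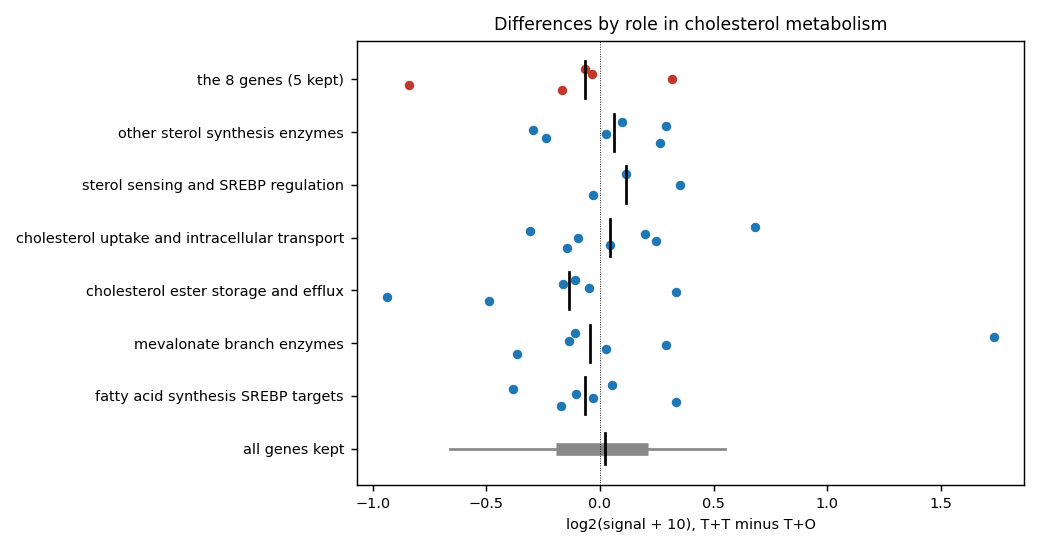
Log2 differences, T+T minus T+O, of the genes kept in each list (1 point per gene, brightest probe set; vertical bars are list medians), with the 5 cholesterol synthesis genes kept in red; the bottom row gives the median, the 25th to 75th percentile (thick) and the 5th to 95th percentile (thin) of all 5677 genes kept. List medians lie between -0.14 and 0.11, and Icmt, at 1.73, is the rightmost point.

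Some features of the whole series stand beside these values. Probed at both ends of its transcript, Gapdh had a 3′ signal 1.20 times its 5′ signal on T+O and 0.809 to 0.886 times on T+T, while this ratio for Actb was 1.53 on T+O and between 1.17 and 1.66 on T+T. For pyruvate carboxylase it was 3.76 on T+O and between 1.76 and 2.00 on T+T, the widest of the 3 gaps. Markers of the testis were present: summed signals of 7 spermatid genes were 28255 on T+O and 28264 to 36304 on T+T, those of 7 Sertoli cell genes 2041 and 2046 to 2376, and those of 6 Leydig cell genes 349 and 303 to 393. The 6 meiotic genes summed to 7831 on T+O and 7499 to 9199 on T+T, and the 5 spermatogonial genes to 594 and 523 to 571. The 6 macrophage genes summed to 212 on T+O and 272 to 366 on T+T, the 4 peritubular myoid genes to 360.0 and 408 to 424, and the 3 adipocyte genes, among which Lipe is also on the ester list, to 350.0 and 242 to 328. T+O lay below all T+T arrays for the spermatid, Sertoli, macrophage and myoid sums, the first 2 by little. It lay above them for the spermatogonial and adipocyte sums, and within their range for the Leydig and meiotic sums. Among all probe sets kept, taken singly, T+O lay outside the T+T range in 53.3%. The brightest spermatogonial gene, Uchl1, went against its sum, with 288.5 on T+O and a mean of 352 ± 10.4 (SD, n = 3) on T+T. Single genes weighed heavily on T+O: Lipe gave 260.3 of the adipocyte sum and Clu 1589 of the Sertoli sum. Adipoq, the other adipocyte gene above the filter level, went against the adipocyte sum, with a log2 difference of 0.10. No marker measured was at 0 on any array. Hsd3b6, Amh, Sycp3, Adgre1 and Fabp4 were under the filter level, and no marker passed the adjusted threshold in limma. The part of these differences in those of Idi1 and Fdps, where T+O also lay outside T+T, was not tested. In whole testis, fewer cells of a type and less RNA per cell cannot be told apart.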

How the data were processed

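The authors deposited linear signal intensities of 12488 probe sets on each of 4 arrays; for the software behind them, the name is not given in the sources used. The deposited intensity levels differed between arrays (medians 25.4 to 48.3), so each array was multiplied by a factor (0.779 to 1.33) that brought its mean, without 2% of probe sets at each end, to the mean of the 4. The 66 control probe sets were left out first. An offset of 10, close to the 25th percentile of scaled signals (9.78), was added before log2, so fold changes of dim probe sets are understated. Probe sets above the 40th percentile of mean signal (22.7) were kept, 7453 in all. The number of arrays limits the precision.

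Symbols came from the platform annotation, updated by gene ID through RefSeq (GRCm38.p6) for 10817 of 10833 probe sets with 1 symbol; 396 had several and 1193 none, and neither kind was named. Groups follow the sample titles; T+T replicate 3 was numbered in accession order. Differences were tested with limma 3.58.1 in R 4.3.3 (lmFit, eBayes with intensity trend, two-sided, Benjamini-Hochberg adjustment, threshold 0.05) in 1 fit with 2 residual and 5.74 prior degrees of freedom, which takes the spread of T+T to hold for the single T+O array as well. The code was tested on simulated data. The rule for named genes took all 8 genes, the 2 highest and 2 lowest kept genes of each other list, and 7 fixed genes where measured. The members, the lists and this rule were chosen with earlier results of these data known. Promoter motifs were searched in the 250 bases before each RefSeq start. Alternatives covered scaling, offset, filter, variance trend, each T+T array left out, and the reading of the labels.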

Additional observations from a re-analysis of the deposited data

How the results depend on the processing

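The differences of the 6 brighter probe sets kept their sign in 72 of 78 alternatives. These include the filter and variance trend settings, which cannot change a difference or its sign. None passed the threshold in the alternatives with a test, where the lowest adjusted p in limma was 0.28, for Idi1; the single pair of arrays has no test. Idi1 ranged from -1.46 to -0.53, Hmgcs1 from -0.43 to -0.036 and Fdps 99098_at from 0.11 to 0.46 on the log2 scale, without a change of sign. The sign turned for Fdft1 (0.095 without T+T replicate 3, 0.11 if replicates 2 and 3 count as withdrawn, 0.051 for T+T replicate 1 against T+O alone), for Sqle (-0.15 to 0.044 with 1 T+T array left out, positive without replicate 3, and 0.060 with replicates 2 and 3 counted as withdrawn) and for Fdps 160424_f_at (-0.11 with no scaling). Among the dim probe sets it turned for Fdps 162281_at (-0.49 to 0.082 with 1 T+T array left out, positive without replicate 2), Fdps 162217_r_at (0.14 with replicates 2 and 3 counted as withdrawn) and Sc5d 102768_i_at (-0.24 to 0.079 with 1 T+T array left out, positive without replicate 2, 0.33 with replicates 2 and 3 counted as withdrawn, 0.17 for the single pair). The cause was not tested. The median over the 5 genes became -0.27 with no scaling, where that of all genes kept became -0.17, and ranged from -0.13 to 0.044 with 1 T+T array left out.

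The number of the 8 genes' probe sets past the threshold was 0 under every alternative with a test. The number at least 1.5-fold apart was 0 to 1 with 1 T+T array left out (Idi1, without replicate 3), 1 with T+T replicates 2 and 3 counted as withdrawn and 1 for the single pair. Over all probe sets, the 2 past the threshold became 0 after quantile scaling, with no filter, with no intensity trend and with replicates 2 and 3 counted as withdrawn, 5 with no scaling, 6 with median scaling, 6 with a 50th-percentile offset, and 1 to 63 with 1 T+T array left out (63 without replicate 1, 12 without replicate 2). The 301 at least 1.5-fold apart became 190 with no scaling, 155 with a 50th-percentile offset and 419 with an offset of 1. The count was 523 with no filter, 167 with the filter at the 60th percentile and 416 to 653 with 1 T+T array left out. It was 1329 for the single pair, where fewer arrays have to lie on 1 side. With replicates 2 and 3 counted as withdrawn it was 205, with 49 higher and 156 lower on T+T replicate 1. No paired analysis was possible because only 1 array is titled T+O and its title carries no number. Signals near the offset limit what can be said of Cyp51, Dhcr7 and Sc5d.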
